A study of Mus musculus with 16 samples.

Results

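Tomatidine diet was compared with control diet in the quadriceps femoris muscle of aged mice, on 10 of the 16 arrays of the series. The members were chosen by diet alone. They are the arrays of 5 mice that ate standard chow with 0.05% (w/w) tomatidine for 2 months and of 5 mice that ate the same chow with no compound. All mice were male C57BL/6, aged 22 months at the start of feeding and 24 months at harvest and no genetic change is stated for any group. The other 6 arrays came from mice on 0.27% (w/w) ursolic acid, a triterpene acid from plants, and served to estimate the spread between mice and as a second treated group. Each array held the RNA of 1 mouse, so the replicates are separate animals.

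Tomatidine is a steroidal alkaloid found in tomato plants and in green tomatoes. Skeletal muscle of old mice is thinner and weaker than that of young adults. The quadriceps of the mouse is built mainly of fast, glycolytic fibres, with fat cells, vessels, nerve endings, connective tissue and resident immune cells between them, so an array of the whole muscle reads all of these together. In such tissue a rise in the RNA of a cell type and a larger number of those cells cannot be told apart.

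The deposited values are log2 signals. Their medians lay between 8.024 and 8.025 on all 16 arrays, and 76.8% of the 25697 probes had a mean signal under 8.5, close to the lowest signals of 7.873 to 7.898. The fast-fibre gene list, the defining list of this muscle, averaged 13.10 to 13.22 in the 10 mice. Differences between group means came from a limma fit over all 16 arrays. In what follows a gene "rose", "fell" or "changed" where the unadjusted p was 0.025 or less, and the adjusted p (Benjamini-Hochberg over all probes) is printed beside it. Tomatidine mice 4 and 3 were the highest on the leading principal component, at 14.56 and 7.109. The control mice lay between -6.345 and 5.839, so that tomatidine mouse 3 was only a little beyond control mouse 5. Of the 150 named probes that passed the threshold used here, 97 also passed without tomatidine mice 3 and 4, and values without them are given for the main results. That fit drops treated mice alone and holds fewer arrays, so a lost call can also come from the smaller group. Tomatidine mice 4 and 3 also had the highest mean levels of the extracellular matrix list (9.87 and 9.59, with 9.23 to 9.47 in the other 8 mice of the comparison) and of the 20 macrophage markers (9.31 and 9.26, with 8.67 to 9.12 in the others). The upper ends, 9.47 and 9.12, were those of control mouse 5. The slow-fibre list was low in control mice 1 and 5 and in tomatidine mouse 4, between 9.91 and 10.13, and lay between 10.70 and 11.13 in the other 7.

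At the unadjusted threshold 1380 of 25697 probes changed (5.37%), of which 579 were higher (2.25%) and 801 lower (3.12%) with tomatidine. The changes were small. Their median size was 0.109 on the log2 scale, or 1.08-fold, 131 exceeded 0.25, 8 exceeded 0.5 and 1 exceeded 1. Among genes represented by their brightest probe, 444 of 16590 rose (2.68%) and 561 fell (3.38%), together 6.06%. A positive change was found in 49.4% of all genes and in 47.4% of the brighter ones with a mean signal of at least 8.5, and the median change over all genes was -0.0004. These shares and this median are the background for every gene list below. Among the brighter genes the shares that passed were larger, 5.71% higher and 7.65% lower of 4498.

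At an adjusted p of 0.1 or less 25 probes of 25 genes remained, 7 higher (0.0272% of all probes) and 18 lower (0.07%). In all 25 the signals of the 5 tomatidine mice lay wholly to one side of those of the 5 control mice, whereas over all probes the groups did not overlap upward in 0.498% and downward in 0.883%. Each of the 25 kept its direction and an unadjusted p of 0.025 or less in every alternative fit and when any 1 mouse was left out, apart from 5 probes that a filter on dim signals removed. Because the 25 were picked by a small p on these same arrays, the separation and these kept calls were largely fixed beforehand. The adjusted call was less stable. It was kept by 0 of the 25 when only these 10 arrays were fitted and by 0 without tomatidine mice 3 and 4.

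**Figure D1:**
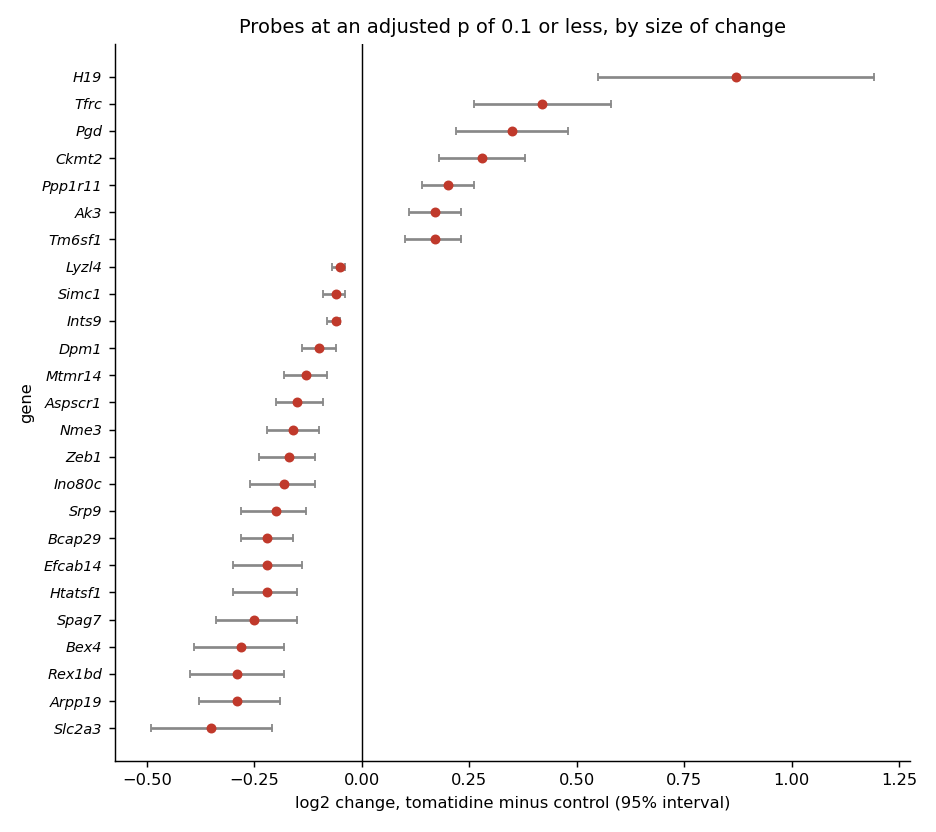
Difference of group means (tomatidine minus control, log2 units, x axis) with its 95% interval for the 25 probes at an adjusted p of 0.1 or less, ordered by size (y axis, gene). The 7 probes above 0 run from 0.17 to 0.87 (H19), and the 18 below 0 run from -0.05 to -0.35 (Slc2a3).

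The 7 that rose concern an imprinted RNA, iron uptake, NADPH, high-energy phosphates and a phosphatase inhibitor. H19, an imprinted noncoding RNA transcribed beside Igf2 and abundant in fetal muscle, read 10.12, 10.55, 10.67, 10.39 and 10.45 in the control mice and 10.92, 11.05, 11.41, 11.53 and 11.65 in the tomatidine mice. Every treated mouse exceeded every control mouse, and the change was 0.87 (SE 0.15, 1.83-fold, adjusted p = 0.0688). It was 0.77 without tomatidine mice 3 and 4. Igf2, the neighbouring imprinted growth factor, rose by 0.48 (SE 0.16, adjusted p = 0.383), with 9.89 to 10.09 in control mice and 10.07, 10.27, 10.69, 11.03 and 10.44 in tomatidine mice. The highest Igf2 values were those of mice 4 and 3, and without them the change was 0.24 (unadjusted p = 0.124). Of the 13 imprinted growth genes measured, to which H19 does not belong, Igf2 was the only member that rose and 0 fell, with a list median of -0.002.

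Tfrc encodes the transferrin receptor, through which cells take up iron. Its probe read 10.46, 10.47, 10.47, 10.34 and 10.34 in control mice and 10.58, 10.73, 10.92, 10.91 and 11.03 in tomatidine mice. The groups were separate, and the rise was 0.42 (SE 0.07, 1.34-fold, adjusted p = 0.0688). Another Tfrc probe rose by 0.39 (SE 0.08, adjusted p = 0.117), also without overlap. The study names Tfrc and Ckmt2 from these same arrays and by qPCR, so their rises here are not independent evidence. Trf, the transferrin that carries iron in plasma, rose by 0.43 (SE 0.16, adjusted p = 0.412), with 9.36, 9.56, 9.35, 9.18 and 9.67 in control mice and 9.50, 9.49, 9.81, 10.23 and 10.26 with tomatidine. Tomatidine mice 1 and 2 lay inside the control range, and without mice 3 and 4 the difference was 0.32 (unadjusted p = 0.0852). Of 12 genes of iron uptake and storage Tfrc and Trf rose and 0 fell. The ferritin heavy chain Fth1, the iron store of the cell, differed by 0.01 and the iron exporter Slc40a1 by -0.04, neither past the test.

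Pgd, 6-phosphogluconate dehydrogenase of the pentose phosphate pathway, read 9.63, 9.55, 9.57, 9.50 and 9.74 in control mice and 9.78, 9.87, 9.98, 10.02 and 10.11 with tomatidine. The rise was 0.35 (SE 0.06, 1.28-fold, adjusted p = 0.0688). The pathway makes NADPH, the reductant for fatty acid synthesis and for glutathione. Of 9 other genes of this pathway and of NADPH supply, 3 rose and 0 fell, with a median of 0.054. They were the transketolase Tkt (0.22, adjusted p = 0.124), the lactonase Pgls (0.20, adjusted p = 0.224) and the NADP-dependent isocitrate dehydrogenase Idh1 (0.20, adjusted p = 0.294), with standard errors of 0.05, 0.05 and 0.06. All 3 also rose without tomatidine mice 3 and 4. The mean of the 9 genes was 9.02 to 9.07 in control mice and 9.09 to 9.13 in tomatidine mice, without overlap. This mean includes the 3 genes that rose, so its separation is not further evidence.

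Ckmt2, the mitochondrial creatine kinase of muscle, read 14.00, 14.21, 14.21, 13.96 and 14.00 in control mice and 14.32, 14.38, 14.35, 14.30 and 14.41 with tomatidine, a rise of 0.28 (SE 0.05, 1.21-fold, adjusted p = 0.0688). Its other probe rose by 0.19 (SE 0.07, adjusted p = 0.412) with overlapping groups. Ak3, the adenylate kinase of the mitochondrial matrix, read 9.79, 9.83, 9.78, 9.82 and 9.94 in control mice and 10.04, 10, 9.95, 10.03 and 10 with tomatidine (0.17, SE 0.03, adjusted p = 0.0688), and its other probe gave 0.11 without passing. Both enzymes pass phosphate between nucleotides or from ATP to creatine. Of 11 creatine and adenylate kinases 3 rose and 0 fell, the remaining one being Ckmt1 at a dim signal (0.05). The remaining rises were Ppp1r11, an inhibitor of protein phosphatase 1, by 0.20 (SE 0.03, adjusted p = 0.0431), and Tm6sf1, a membrane protein, by 0.17 (SE 0.03, adjusted p = 0.086) at a dim signal.

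Among the 18 that fell, Arpp19 encodes an inhibitor of protein phosphatase 2A. It read 9.26, 9.45, 9.36, 9.35 and 9.34 in control mice and 9.04, 9.11, 9.11, 9.12 and 8.96 in tomatidine mice, a change of -0.29 (SE 0.04, 1.22-fold lower, adjusted p = 0.0552). Of 22 subunits and inhibitors of phosphatases 1 and 2A, 2 rose and 3 fell, with a median of -0.005. Besides Ppp1r11 and Arpp19, the inhibitor Anp32a rose by 0.13, and the catalytic subunits Ppp1ca and Ppp2cb fell by 0.14 and 0.18. The list thus held changes in both directions, among inhibitors as well.

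Bcap29, a protein of the endoplasmic reticulum membrane, read 10.70, 10.58, 10.59, 10.63 and 10.57 in control mice and 10.39, 10.34, 10.37, 10.44 and 10.44 with tomatidine (-0.22, SE 0.03, adjusted p = 0.0234), and its other probe fell by 0.12. Srp9 belongs to the signal recognition particle, which brings secretory proteins to that membrane, and read 10.03, 9.84, 9.94, 10.03 and 9.94 against 9.81, 9.80, 9.79, 9.66 and 9.70 (-0.20, SE 0.04, adjusted p = 0.0745). Of 21 genes of the signal recognition particle and translocon 5 fell and 0 rose, with a median of -0.035. Besides Srp9 the lower p values were those of Sec61b (-0.09), a subunit of the protein-conducting channel, of its partner Sec63 (-0.17), and of Ssr4 (-0.21), a translocon-associated protein. When tomatidine mice 3 and 4 were left out, 3 were lower and 0 higher, and the median was -0.010. Dpm1, which makes the mannose donor for glycoproteins in the same compartment, fell by 0.10.

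Slc2a3, the glucose transporter GLUT3, read 9.15, 9.17, 8.99, 9.21 and 9.08 in control mice and 8.95, 8.76, 8.65, 8.70 and 8.78 with tomatidine, the widest fall of the 25 (-0.35, SE 0.07, 1.28-fold lower, adjusted p = 0.0936). Aspscr1, which tethers vesicles that hold the insulin-responsive transporter GLUT4, fell by 0.15. The gene of GLUT4 itself, Slc2a4, differed by 0.04 and did not pass the test. Of 16 genes of glycogen metabolism and glucose transport 4 fell and 0 rose, and the median was -0.078. Gyg, the glycogenin that primes glycogen, fell by 0.29 (SE 0.06, adjusted p = 0.16), and the phosphorylase kinase subunits Phkb and Phkg1 fell by 0.27 and 0.24 (adjusted p = 0.423 and 0.44). The mean of the 16 genes was 10.58, 10.50, 10.53, 10.52 and 10.59 in control mice and 10.45, 10.48, 10.45, 10.41 and 10.42 in tomatidine mice, without overlap. None of 15 glycolysis genes changed by this test, and their median was -0.002. Leaving out tomatidine mice 3 and 4 gave 3 falls among the 16 genes and a median of -0.054.

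The other falls at the adjusted threshold were nuclear or of less well known function. Zeb1, a zinc finger repressor, read 10.22 to 10.36 in control mice and 10.03 to 10.16 with tomatidine (-0.17). Htatsf1, a splicing and elongation factor, fell by 0.22, Ino80c, a subunit of the INO80 chromatin remodeller, by 0.18, and the nucleoside diphosphate kinase Nme3 by 0.16. Rex1bd, Bex4, Spag7 and Efcab14 fell by 0.29, 0.28, 0.25 and 0.22, and the phosphoinositide phosphatase Mtmr14 by 0.13. Efcab14 has 5 probes, of which 2 fell and the other 3 gave -0.07, -0.06 and 0 without passing. Other probes of Aspscr1 gave -0.10 and -0.02, of Ino80c -0.15, -0.04 and -0.01 and of Mtmr14 -0.11, -0.03 and -0.03, none past the threshold. Ints9, Lyzl4 and Simc1 fell by 0.06, 0.05 and 0.06 on signals below 8.5, where such differences amount to a few percent of a signal near the array's lowest. Ints9, a subunit of the Integrator complex, read 8.33 to 8.36 in control mice and 8.27 to 8.29 with tomatidine.

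**Figure D2:**
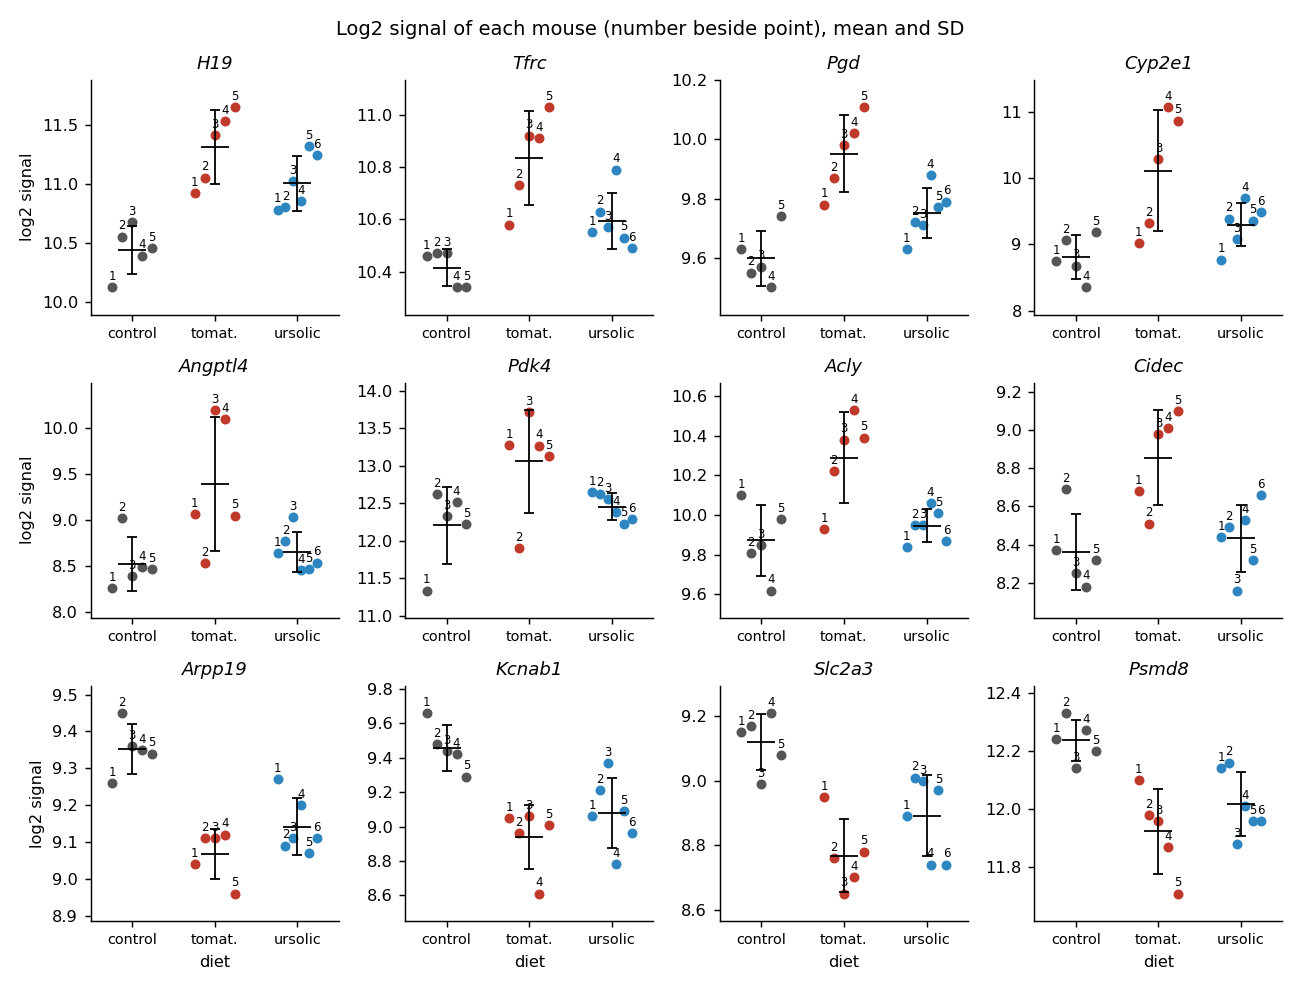
Log2 signal (y axis, a separate scale in each panel) of 12 genes in each mouse on control, tomatidine and ursolic acid diet (x axis), where the number beside a point is the mouse, the long bar the group mean and the whisker 1 SD. H19, Tfrc, Pgd, Arpp19, Slc2a3, Kcnab1 and Psmd8 show no overlap between control and tomatidine mice, whereas Cyp2e1, Angptl4, Pdk4, Acly and Cidec overlap. These 12 genes were chosen after their values were seen.

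Some genes of fat cells and of fat synthesis rose and 0 fell. Of 26 adipocyte markers 10 rose and 0 fell (38.5% higher, against 2.68% of all genes), and the median was 0.163. Cyp2e1, a cytochrome P450 of liver and fat, had the largest change of all probes that passed the threshold, with 8.75, 9.07, 8.68, 8.35 and 9.19 in control mice and 9.02, 9.32, 10.29, 11.08 and 10.87 in tomatidine mice. The 3 highest values were those of tomatidine mice 4, 5 and 3, while mouse 1 lay below 2 control mice. The rise was 1.31 (SE 0.34, 2.47-fold, adjusted p = 0.237), and 0.93 without mice 3 and 4. Cidec, a protein of lipid droplets, read 8.37, 8.69, 8.25, 8.18 and 8.32 against 8.68, 8.51, 8.98, 9.01 and 9.10 (0.49, SE 0.12, adjusted p = 0.224). Adig, adipogenin, rose by 0.45 (SE 0.12, adjusted p = 0.236) and its tomatidine values of 9.12 to 9.45 overlapped only with control mouse 2 at 9.26. Adipoq, the fat cell hormone adiponectin, rose by 0.48 (SE 0.18, adjusted p = 0.44), a call that was lost in 9 of the 16 fits that left out 1 mouse.

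The list did not move as a block. Leptin (Lep) differed by -0.20 without passing, and the probes of Fabp4, Plin1, Retn and Fasn, which define fat cells as well, sat at 7.98 to 8.02, the level of the dimmest probes, and so give no measure of them. The mean of the 26 genes was 9.18, 9.43, 9.26, 9.16 and 9.16 in control mice and 9.47, 9.30, 9.42, 9.45 and 9.58 in tomatidine mice, where control mouse 2 lay above 2 of the treated mice. Of its members 6 also belong to the fat synthesis list. How much fat tissue each sample held is not recorded in the labels, and its part in these rises was not tested. Of the 26, 8 rose and 0 fell without tomatidine mice 3 and 4, with a median of 0.15.

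Fatty acid and triglyceride synthesis showed the same direction, with 6 of 16 genes higher, 0 lower and a median of 0.094. Acly makes acetyl-CoA for synthesis in the cytosol and read 10.10, 9.81, 9.85, 9.62 and 9.98 in control mice and 9.93, 10.22, 10.38, 10.53 and 10.39 with tomatidine (0.42, SE 0.10, 1.34-fold, adjusted p = 0.221). Acaca, acetyl-CoA carboxylase, which commits that carbon to fatty acids, read 8.90, 8.88, 8.99, 8.76 and 8.91 against 9.0, 9.21, 9.21, 9.28 and 9.56 (0.37, SE 0.09, adjusted p = 0.195). Every tomatidine mouse exceeded every control mouse for Acaca, and 4 of 5 did so for Acly. Thrsp, a nuclear protein that accompanies fat synthesis, rose by 0.33 (SE 0.09, adjusted p = 0.245), and the fatty acid elongase Elovl5 by 0.21 (SE 0.07, adjusted p = 0.329). The malic enzyme Me1, an NADPH source, differed by -0.10 and did not pass. The list mean was 9.13, 9.17, 9.16, 9.09 and 9.09 in control mice and 9.27, 9.24, 9.23, 9.26 and 9.36 in tomatidine mice, without overlap. Leaving out tomatidine mice 3 and 4 gave 4 rises and a median of 0.086. Of 18 genes of cholesterol synthesis 0 rose, 1 fell (Sc5d, by 0.10 at a dim signal) and the median was -0.007. Dim probes made up 14 of the 18, so this list was poorly measured, and 0 of its 4 brighter members changed.

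Genes that respond to the fatty acid receptors of the PPAR family included some of the larger rises. Their calls were lost without tomatidine mice 3 and 4, in a fit that held fewer arrays. Angptl4, a secreted inhibitor of lipoprotein lipase, read 8.26, 9.02, 8.39, 8.49 and 8.47 in control mice and 9.07, 8.53, 10.20, 10.10 and 9.05 with tomatidine (0.87, SE 0.27, 1.82-fold, adjusted p = 0.329). Tomatidine mice 3 and 4 stood above the other 3, and without them the difference was 0.36 (unadjusted p = 0.064). Pdk4, the kinase that shuts off pyruvate dehydrogenase, read 11.34, 12.62, 12.33, 12.52 and 12.22 against 13.28, 11.90, 13.72, 13.27 and 13.13 (0.86, SE 0.29, 1.81-fold, adjusted p = 0.371). Here 4 treated mice exceeded all controls while mouse 2 lay below 4 of them, and the call was lost without tomatidine mouse 3 or without control mouse 1. Ucp3, a mitochondrial carrier induced by fasting, rose by 0.40 (SE 0.14, adjusted p = 0.402), and by 0.19 (unadjusted p = 0.158) without mice 3 and 4. Of 14 genes in this list 4 rose and 0 fell, with a median of 0.107. Without tomatidine mice 3 and 4, 0 passed in either direction and the median was 0.114.

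Txnip, a member of the arrestin family that limits glucose uptake, was the remaining gene of these 4. It read 11.99, 12.26, 11.90, 12.26 and 12.24 in control mice and 12.53, 12.16, 12.63, 12.71 and 12.61 with tomatidine (0.40, SE 0.13, 1.32-fold, adjusted p = 0.337). Its relative Arrdc4 moved the other way, with 9.32, 9.33, 9.16, 9.51 and 9.24 in control mice and 9.12, 8.75, 8.81, 9.11 and 8.99 with tomatidine, a fall of 0.36 on the log2 scale (SE 0.08, 1.28-fold, adjusted p = 0.197). The Arrdc4 groups did not overlap. Both genes are known to respond to glucose through MondoA and its partner Mlx, which bind paired E-box-like motifs. For this reason their promoters are shown, from 250 bases before to 50 bases after the start in RefSeq (GRCm38.p6), at chr3:96557707-96558006 on the plus strand for Txnip and chr7:68749189-68749488 on the minus strand for Arrdc4. Capitals mark every CACGNG, on either strand.
Txnip: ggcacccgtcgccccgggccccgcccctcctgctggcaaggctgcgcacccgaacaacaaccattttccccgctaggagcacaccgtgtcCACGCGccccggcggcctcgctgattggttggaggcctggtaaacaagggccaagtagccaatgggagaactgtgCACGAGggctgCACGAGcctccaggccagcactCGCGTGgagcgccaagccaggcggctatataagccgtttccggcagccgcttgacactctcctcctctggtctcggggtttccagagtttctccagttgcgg
Arrdc4: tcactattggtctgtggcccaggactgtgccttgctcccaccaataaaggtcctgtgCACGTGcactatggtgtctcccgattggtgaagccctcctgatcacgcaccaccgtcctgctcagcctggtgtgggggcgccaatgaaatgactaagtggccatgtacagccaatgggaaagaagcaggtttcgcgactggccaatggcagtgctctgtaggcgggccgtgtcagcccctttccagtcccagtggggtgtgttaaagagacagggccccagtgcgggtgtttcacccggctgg
The Txnip window held 4 such motifs, and the Arrdc4 window held 1, which was the full E-box CACGTG. In the Txnip window alone, 1 pair of them stood in tandem with 5 bases between (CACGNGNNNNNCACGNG). Of 32851 promoter windows of this length, 27.5% held CACGNG, 7.15% held CACGTG and 0.0487% the tandem, on either strand, where the CACGTG matches are among the CACGNG matches. A match is a run of letters in these windows and was not tested for binding.

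Around pyruvate dehydrogenase, which admits pyruvate to the mitochondrion's oxidation, Pdk4 and its counterpart Pdp2 both rose. Pdp2, a phosphatase that reactivates the complex, read 8.41, 8.56, 8.51, 8.52 and 8.59 in control mice and 8.79, 8.76, 8.94, 9.0 and 9.16 with tomatidine (0.41, SE 0.10, adjusted p = 0.236). The groups were separate, and the rise was 0.38 without mice 3 and 4. Of 12 genes of the complex and its regulators these 2 rose and 0 fell. In beta-oxidation 2 of 21 genes rose and 0 fell, with a median of 0.068. Both were among the 19 brighter members, 10.5% against 5.71% of all brighter genes. The 2 were Decr1 (0.26, SE 0.07, adjusted p = 0.257), an auxiliary reductase for unsaturated fatty acids, and Cpt2 (0.27, SE 0.10, adjusted p = 0.409), which releases fatty acids inside the mitochondrion. Without tomatidine mice 3 and 4 the list had 4 higher, 0 lower and a median of 0.13.

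Mitochondrial ATP synthesis moved by small amounts. Of 15 ATP synthase genes 4 rose and 0 fell, with a median of 0.053. Atp5g1, a subunit of the membrane ring, read 14.21, 14.34, 14.34, 14.25 and 14.33 in control mice and 14.42, 14.46, 14.36, 14.45 and 14.56 with tomatidine (0.16, SE 0.04, adjusted p = 0.237). Atp5j, Atp5pb and Atp5o rose by 0.10, 0.18 and 0.11. In complex I, 4 of 34 genes rose (Ndufa6 0.16, Ndufa9 0.15, Ndufc2 0.15, Ndufs4 0.13) and 1 fell (Ndufb11, by 0.10). Of the 30 brighter members 13.3% rose and 0 fell, against 5.71% and 7.65% of all brighter genes. In complexes II to IV, 3 of 26 rose and 0 fell, among them the cytochrome oxidase subunits Cox8a (0.25, SE 0.07, adjusted p = 0.237) and Cox6a1 (0.24, SE 0.07, adjusted p = 0.322). The mean of each of these lists overlapped between the groups, for ATP synthase 12.12 to 12.24 in control and 12.13 to 12.26 in tomatidine mice, and tomatidine mouse 4 was the lowest of its group in each. Without tomatidine mice 3 and 4 the counts higher were 4 of 15, 3 of 34 and 4 of 26, with 0 lower in each. Mitochondrial ribosomal proteins went both ways, with 6 of 56 higher and 5 lower. Of the 50 brighter members 12% rose and 10% fell, against 5.71% and 7.65% of all brighter genes. Mrpl3 (0.17) and Mrps31 (0.13) rose, and Mrpl27 (-0.20) and Mrps28 (-0.19) fell.

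Proteasome subunits were lower. Of 30 genes 5 fell and 0 rose (16.7% lower, against 3.38% of all genes and 7.65% of the brighter ones), 5 had a positive change and the median was -0.056. Psmd8, a lid subunit of the regulatory particle, read 12.24, 12.33, 12.14, 12.27 and 12.20 in control mice and 12.10, 11.98, 11.96, 11.87 and 11.71 with tomatidine (-0.31, SE 0.07, 1.24-fold lower, adjusted p = 0.137). The core subunit Psmb7 read 13.02, 12.83, 12.94, 12.94 and 13.13 against 12.86, 12.67, 12.75, 12.81 and 12.69 (-0.22, SE 0.05, adjusted p = 0.203) on the brightest of its probes, the other 2 giving -0.03 and 0.03. Of the core subunits Psma3 and Psmb1, the former fell by 0.29 (SE 0.09, adjusted p = 0.352). Psmb1 fell by 0.26 with an SE of 0.08 and an adjusted p of 0.309. The mean of the 30 genes was 11.02, 11, 10.97, 11.02 and 11 in control mice and 10.92, 10.93, 10.94, 10.94 and 10.91 in tomatidine mice. These means did not overlap, although they differed by under 0.1 on the log2 scale. Without tomatidine mice 3 and 4, 6 of 30 fell, 0 rose and the median was -0.063. List means also separated the groups for iron uptake and storage (9.66 to 9.72 in control mice, 9.74 to 9.84 in tomatidine mice). The same held for pyruvate dehydrogenase (9.51 to 9.66 and 9.67 to 9.76) and for translation initiation factors (10.01 to 10.04 and 9.97 to 9.99). The iron and pyruvate dehydrogenase means include the members that rose, and the medians of these lists were only 0.022 and 0.013. A separation of their means is therefore not further evidence of a shift across the list. Of 32 such initiation factors only 1 fell and 0 rose, with a median of -0.025.

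**Figure D3:**
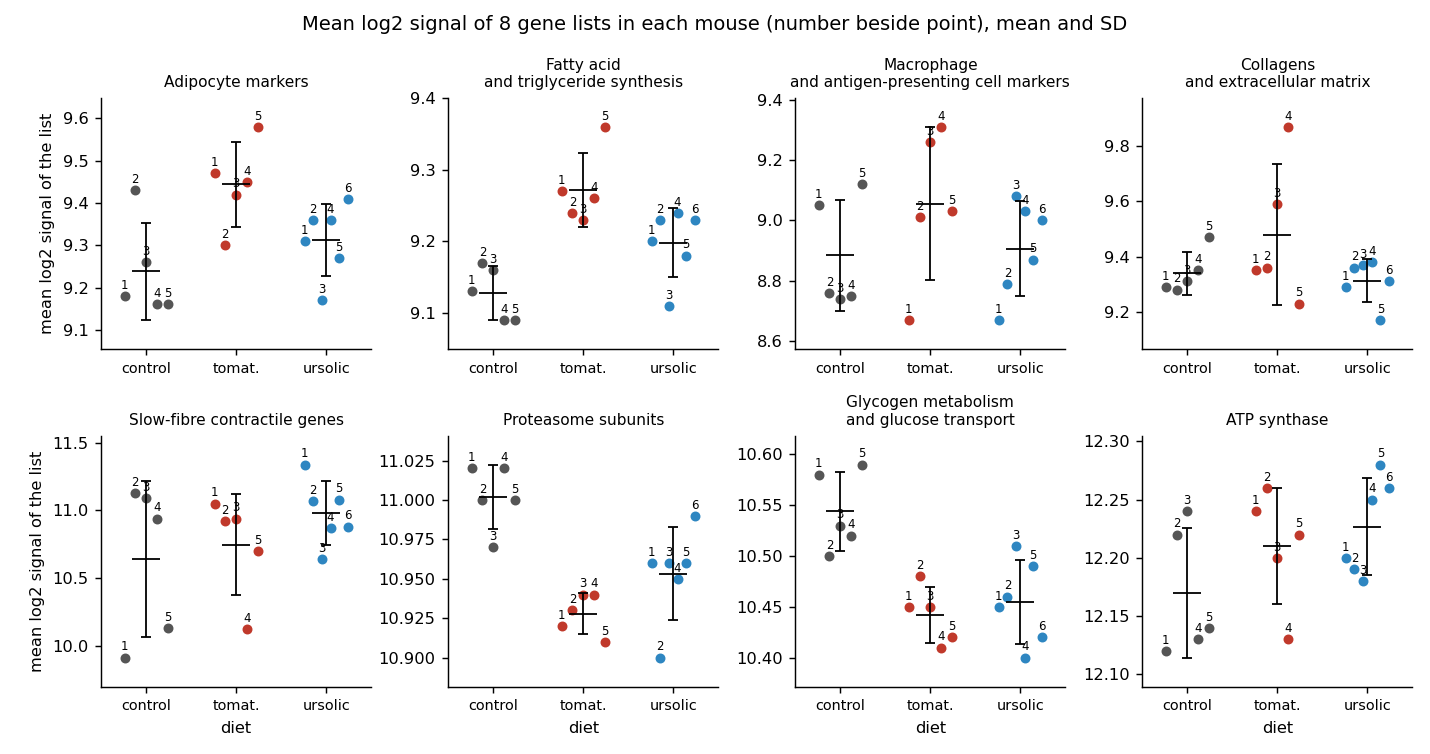
Mean log2 signal of 8 gene lists (y axis, a separate scale in each panel) in each mouse on control, tomatidine and ursolic acid diet (x axis), where the number beside a point is the mouse, the long bar the group mean and the whisker 1 SD. Fat synthesis, proteasome and glycogen lists separate the control from the tomatidine mice, the matrix list is high in tomatidine mice 3 and 4 (9.59 and 9.87), and the slow-fibre list is low in control mice 1 and 5 and tomatidine mouse 4. The 8 lists were chosen after their values were seen.

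Among other protein breakdown genes, Trim63, the muscle ubiquitin ligase MuRF1, fell by 0.30 (SE 0.11, adjusted p = 0.412), with 10.25 to 10.60 in control mice and 10.32, 9.90, 10.18, 10.09 and 9.91 with tomatidine. Its relative Trim54 fell by 0.20 (SE 0.07, adjusted p = 0.413). The ligase Fbxo32 (atrogin-1) differed by -0.05 and did not pass. Of 18 atrophy genes these 2 fell and 0 rose, with a median of 0. Gadd45a, a stress gene that rises in muscle atrophy and which the study names, read 10.36, 9.80, 9.95, 10.04 and 10.96 in control mice and 9.76, 11.04, 11.07, 11.42 and 11.26 with tomatidine. Its difference was 0.69 (SE 0.31) at an unadjusted p of 0.0436, short of the threshold, with tomatidine mouse 1 below all the others, and another probe gave 0.45 (unadjusted p = 0.0726). Without tomatidine mouse 1 both probes passed, at 0.98 and 0.68, and the brighter one also without control mouse 5, at 0.87. A covariate chosen after seeing the data, the mean of the slow-fibre list, gave 0.78 (unadjusted p = 0.00683) and 0.52 (unadjusted p = 0.0147). Of 25 autophagy genes 3 fell and 0 rose, namely Becn1 (-0.11), Pink1 (-0.18) and Ulk2 (-0.12), and without mice 3 and 4 0 of them passed. All 3 were among the 18 brighter members, 16.7% against 7.65% of all brighter genes.

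The study names Eif4ebp1, Eif2s2, Eif3c, Slc6a9, Slc38a2, Lars, Nars, Mars and Sars from these arrays, so their direction here is not independent evidence. It reached ATF4 through a set of ATF4 target genes on these arrays, then studied forced expression of ATF4 and muscle knock-out of Atf4. Atf4, the transcription factor of the amino acid response, gave 0 (SE 0.07, unadjusted p = 0.987) on a probe that read 9.94 to 10.16 in control mice and 9.92 to 10.30 with tomatidine. Another Atf4 probe gave -0.08 (SE 0.16, unadjusted p = 0.649). The leucyl-tRNA synthetase Lars read 9.31, 9.28, 9.40, 9.40 and 9.32 in control mice and 9.20, 9.19, 9.08, 9.14 and 9.19 with tomatidine, a fall of 0.18 without overlap (SE 0.04, adjusted p = 0.124). Nars fell by 0.20 (SE 0.05, adjusted p = 0.236), and of 2 Sars probes 1 fell by 0.11 (SE 0.03, adjusted p = 0.271) while the brighter gave -0.04. The 2 Mars1 probes gave -0.11 and -0.06 and did not pass. The initiation factor subunit Eif3c fell by 0.20 (SE 0.05, adjusted p = 0.229), and the glycine transporter Slc6a9 by 0.10 (SE 0.04, adjusted p = 0.376). Eif4ebp1 (-0.20), both Eif2s2 probes (-0.16 and -0.14) and the 3 Slc38a2 probes (0.11, 0.02 and -0.11) did not pass in the limma fit. By the methods' t-test, however, Eif4ebp1 and the brighter Eif2s2 probe were within the threshold. For Eif4ebp1 the study also reports less RNA by qPCR and less of the protein with both compounds. Without tomatidine mice 3 and 4 the calls of Sars and Slc6a9 were lost, at -0.09 and -0.10. Of 38 genes that respond to ATF4 4 fell and 0 rose, with a median of -0.005, and 18 of the 38 were dim. All 4 were among the 20 brighter members, 20% against 7.65% of all brighter genes. Of these 20, 5 had a positive change and the median was -0.105. Of 19 cytosolic aminoacyl-tRNA synthetases, by their brightest probe, 2 fell (Lars and Nars), 0 rose and 2 had a positive change, with a median of -0.037. Of 58 cytosolic ribosomal proteins 4 fell and 0 rose, led by Rpl22 (-0.22, SE 0.04, adjusted p = 0.124), and the median was -0.001. All 4 were among the 50 brighter members, 8% against 7.65% of all brighter genes, so this share was near the background.

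Genes of muscle excitability were among the larger falls. Kcnab1, an auxiliary subunit of potassium channels, read 9.66, 9.48, 9.44, 9.42 and 9.29 in control mice and 9.05, 8.96, 9.06, 8.61 and 9.01 with tomatidine (-0.52, SE 0.11, 1.44-fold lower, adjusted p = 0.124), the largest fall among the probes that passed. A further probe fell by 0.42 (SE 0.09, adjusted p = 0.124), and a dim one gave 0.01. Of 14 genes of ion channels and excitability 3 fell and 0 rose, with a median of -0.063. Beside Kcnab1 these were Cacng1 (-0.34, SE 0.10, adjusted p = 0.286), a subunit of the muscle calcium channel, and Stac3 (-0.20, SE 0.06, adjusted p = 0.271), which couples that channel to contraction. The count was also 3 without tomatidine mice 3 and 4.

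Itpr1, a calcium release channel, read 12.69, 12.40, 12.40, 12.45 and 12.55 in control mice and 12.28, 12.27, 12.12, 11.96 and 11.91 with tomatidine (-0.39, SE 0.10, adjusted p = 0.224). Art3, an ADP-ribosyltransferase of the muscle surface, fell by 0.45 (SE 0.11, adjusted p = 0.224) on the brightest of its probes, with -0.16 and 0.01 on the others. Rbm3, an RNA-binding protein that rises in the cold, fell by 0.43 (SE 0.11, adjusted p = 0.224) on 1 of 3 probes, the other 2 being dim. Itpr1 did not overlap between the groups. The phosphate exporter Xpr1, the myofibril assembly protein Nrap, the Rac activator Tiam1 and the actin-binding Pfn2 fell by 0.40, 0.39, 0.38 and 0.36 (adjusted p = 0.375, 0.402, 0.413 and 0.294). These 4 calls were lost without tomatidine mice 3 and 4, where the changes were -0.26, -0.23, -0.34 and -0.27.

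Among rises outside these groups, the interferon-inducible gene Ifi27l2a read 9.32, 9.39, 9.13, 8.79 and 9.41 in control mice and 9.40, 9.68, 10.72, 10.01 and 10.15 with tomatidine (0.78, SE 0.23, 1.72-fold, adjusted p = 0.304), and it differed by 0.53 (unadjusted p = 0.0392) without mice 3 and 4. This Ifi27l2a probe is not in the list of 27 interferon-stimulated genes, whose highest change was 0.14 and of which 0 passed. Of these 27 genes 18 were dim. Nceh1, which hydrolyses cholesterol esters, read 9.76, 10.39, 10.43, 10.13 and 10.19 against 10.61, 10.47, 10.75, 10.75 and 10.85 (0.50, SE 0.12, adjusted p = 0.195), without overlap. Cdo1, cysteine dioxygenase, rose by 0.49 (SE 0.14, adjusted p = 0.266), with 8.46 to 9.07 against 9.13 to 9.64. A probe with no gene name in the annotation used, ILMN_2835423, rose by 0.88 (SE 0.31, adjusted p = 0.403), with 11.72 to 13.20 in control mice and 12.78 to 14.02 with tomatidine, and by 0.70 (unadjusted p = 0.0796) without mice 3 and 4. In glutathione metabolism and oxidative defence 2 of 25 genes rose and 0 fell, the microsomal transferase Mgst1 (0.45, SE 0.11, adjusted p = 0.197, and 0.28 on another probe) and Gsta3 (0.35, SE 0.10, adjusted p = 0.289), the list median being 0.007. The Gsta3 difference was 0.21 (unadjusted p = 0.0318) without those mice. Of 9 genes of cholesterol efflux the sterol receptor Nr1h3 (LXR alpha, 0.20) and Apoe (0.34) rose, and 0 passed without tomatidine mice 3 and 4. Of 20 heat shock genes the chaperone Hsph1 (0.27) and the cochaperone Bag3 (0.23) rose and 0 fell, of which Hsph1 (0.19, unadjusted p = 0.107) did not pass without mice 3 and 4. Of 48 splicing factors 3 rose, Hnrnpa2b1 (0.19), Hnrnpc (0.24) and Tra2a (0.14), and 3 fell. Of the 34 brighter members 8.82% rose and 5.88% fell, against 5.71% and 7.65% of all brighter genes. Without mice 3 and 4 the Hnrnpa2b1 and Hnrnpc differences were 0.18 (unadjusted p = 0.0545) and 0.16 (unadjusted p = 0.07).

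At the nerve ending, Chrna1, the alpha subunit of the acetylcholine receptor, rose by 0.38 on both of its brighter probes (SE 0.12 and 0.13, adjusted p = 0.327 and 0.409). The brighter read 8.70, 8.93, 8.96, 8.89 and 8.77 in control mice and 8.74, 9.36, 9.23, 9.47 and 9.32 with tomatidine, so that mouse 1 was at the control level, and the difference was 0.29 (unadjusted p = 0.0444) without mice 3 and 4. Lrp4, the agrin receptor, rose by 0.13, and Rapsn, which clusters the receptors, fell by 0.11. Of 18 genes of the junction and of denervation, 2 rose and 1 fell. Among secreted factors, 2 of 19 rose. Il15, a cytokine made by muscle, read 9.09, 9.47, 9.41, 9.17 and 9.46 against 9.63, 9.68, 9.65, 9.64 and 9.67 (0.33, SE 0.08, adjusted p = 0.192), with 0.15 and 0.03 on its dimmer probes. Fndc5, the precursor of irisin, read 9.58, 10.19, 10.28, 9.98 and 9.88 against 10.59, 10.31, 10.55, 10.08 and 10.54 (0.43, SE 0.12, adjusted p = 0.266). The Il15 groups did not overlap, whereas tomatidine mouse 4 lay inside the control range for Fndc5. The study also names these 2 genes from these arrays and by qPCR, so their rises here are not independent evidence.

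The matrix and macrophage lists were highest in tomatidine mice 3 and 4. Of 29 collagens and other matrix genes 3 rose and 0 fell, with a median of 0.086, and without these mice 1 rose, 1 fell and the median was -0.014. Bgn, the proteoglycan biglycan, read 10.59, 10.81, 10.80, 10.83 and 10.76 in control mice and 10.91, 11.03, 11.34, 11.66 and 11.12 with tomatidine (0.46, SE 0.11, adjusted p = 0.224), and still rose by 0.26 without mice 3 and 4. The basement membrane collagens Col4a1 and Col4a2 rose by 0.39 and 0.36, and by 0.12 and 0.19, past no threshold, without them. Of 20 macrophage and antigen-presenting cell markers 1 rose (Tyrobp, by 0.08 at a dim signal) and 0 fell. The median was 0.114 with 18 of 20 positive, and -0.001 without the 2 mice. Igf1, Igf2 and Igfbp4, the only genes of 25 in insulin and IGF signalling that rose, gave 0.25, 0.48 and 0.31, with 0 of 25 past the threshold without those mice. Whether the matrix or immune content of these 2 muscles bears on those genes was not tested.

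Markers of other cell types gave few calls. Of 17 endothelial markers 2 rose, Eng (0.31, SE 0.08, adjusted p = 0.236) and Robo4 (0.16, SE 0.05, adjusted p = 0.361), 0 fell and the median was 0.126. Without mice 3 and 4 their changes were 0.41 and 0.20. The 6 red blood cell genes had a median of 0.257 with 0 past the threshold, and tomatidine mouse 5 alone had a high mean (9.82, with 8.83 to 9.30 in the other 9). Of 13 neutrophil and acute phase genes only the plasma protein Orm1 rose (0.37, SE 0.09, adjusted p = 0.224). Of 13 slow-fibre genes 1 rose and of 16 fast-fibre genes 2 fell, Mylk2 (-0.11) and Mybpc2 (-0.11). Of the 14 brighter fast-fibre genes 7.14% fell, near the 7.65% of all brighter genes. None of the genes in the lists for circadian clock, interferon response, fibroblasts, smooth muscle, Schwann cells or T and B cells changed. Dim probes made up 12 of the 13 T and B cell genes, 6 of the 8 Schwann cell genes and 18 of the 27 interferon genes. The lack of calls in these lists therefore gives little information about them.

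**Figure D4:**
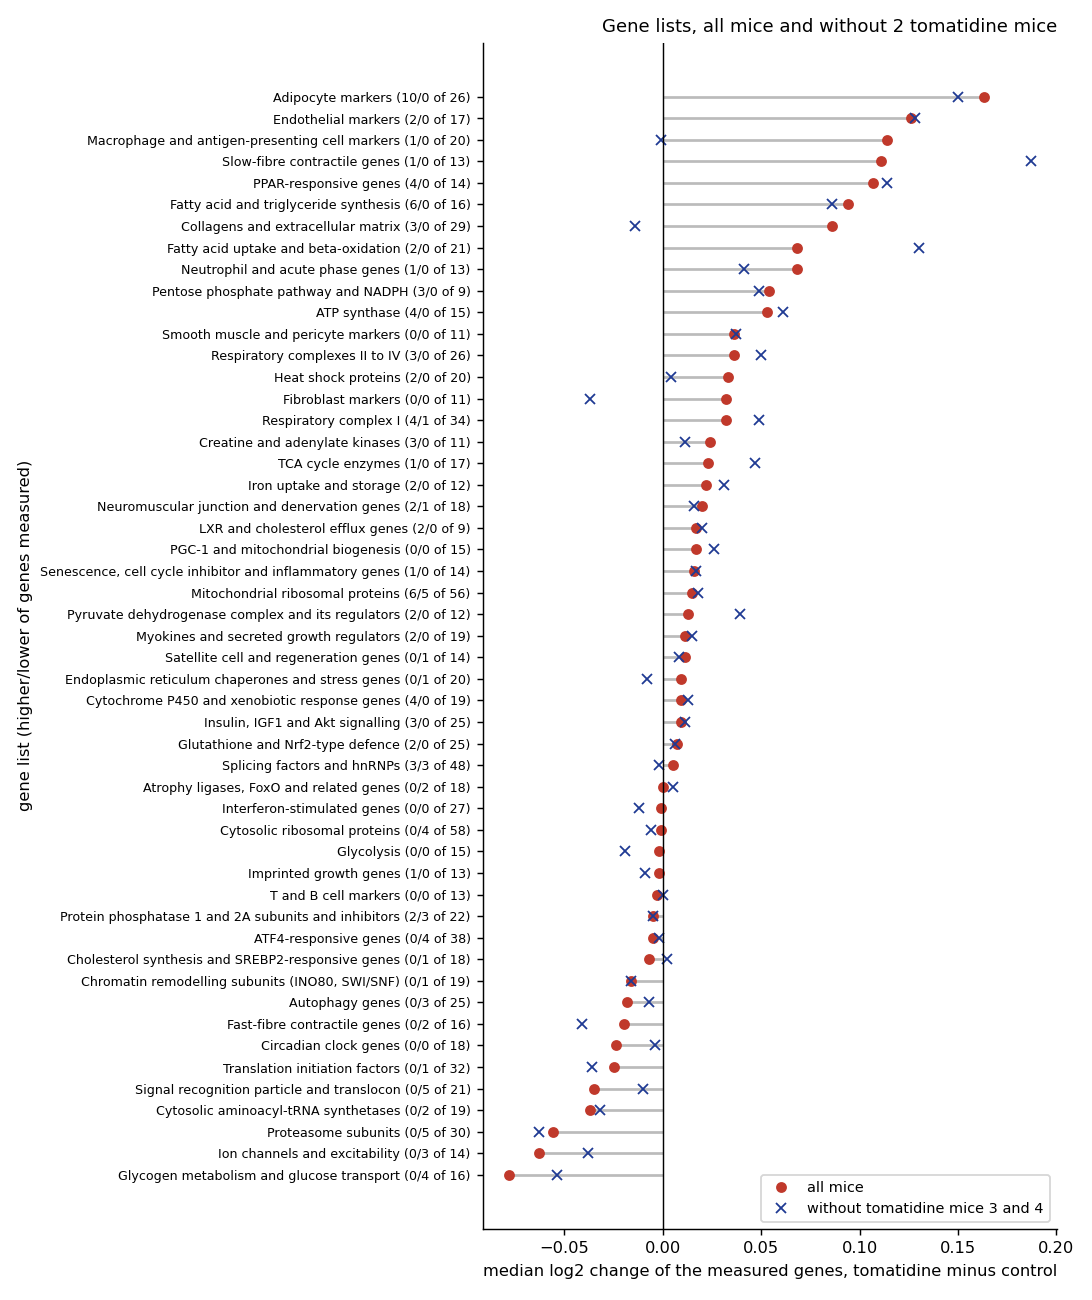
Median log2 change (x axis) of the genes measured in each of 51 lists with 9 or more measured genes, with all mice (circles) and without tomatidine mice 3 and 4 (crosses), where the label gives the list with its counts higher and lower. Adipocyte markers have the largest positive median (0.163) and glycogen metabolism the lowest (-0.078), while the macrophage and matrix lists move to -0.001 and -0.014 without the 2 mice.

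Tomatidine mice were also set against the 6 ursolic acid mice, at doses that differ, so that the values compare these diets and not the compounds at a matched dose. At the unadjusted threshold 756 of 25697 probes differed (2.94%), 371 higher (1.44%) and 385 lower (1.5%) with tomatidine. By brightest probe 3.04% of genes differed, and 3 probes had an adjusted p of 0.1 or less (0.0117%). Ak3 was 9.74 to 9.85 in ursolic acid mice and 9.95 to 10.04 in tomatidine mice, higher by 0.21 (SE 0.03). Ints9 was lower by 0.06 and Ugt1a10, a glucuronosyltransferase, higher by 0.06, both on dim probes. Tkt was higher by 0.22, Pgd by 0.20, Acly by 0.34, Acaca by 0.26, Cidec by 0.42, Ucp3 by 0.45 and Txnip by 0.41, each at an unadjusted p of 0.025 or less. Of the 18 probes that fell against control diet at the adjusted threshold 4 (Bex4, Ints9, Mtmr14 and Zeb1) were also lower than in ursolic acid mice, and of the 7 that rose 4 (Ak3, Pgd, Ppp1r11 and Tfrc) were also higher. These probes were picked against control diet, and the same tomatidine mice enter both comparisons, so this sharing is not separate evidence. Other falls did not pass against ursolic acid. Arpp19 differed by -0.07 (95% interval -0.16 to 0.01), Slc2a3 by -0.12 (-0.26 to 0.01), Psmd8 by -0.10 (-0.23 to 0.04) and Kcnab1 by -0.14 (-0.36 to 0.08). These intervals hold 0 and do not show that the diets act alike.

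**Figure D5:**
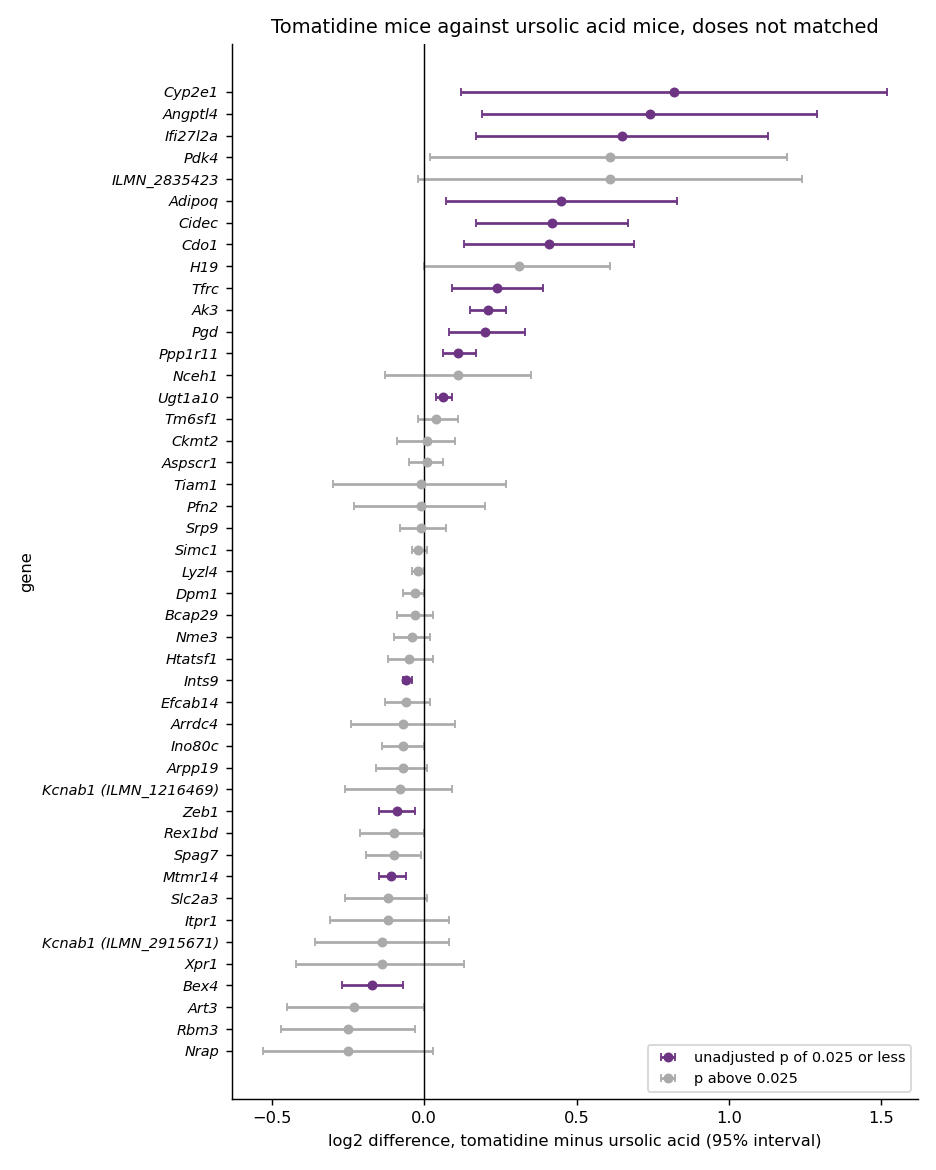
Difference between tomatidine and ursolic acid mice (log2 units, x axis, with its 95% interval) for the 45 probes named for the size or adjusted p of their change, or for this comparison itself (y axis, gene). Purple marks the 15 with an unadjusted p of 0.025 or less, from Cyp2e1 at 0.82 to Bex4 at -0.17, and grey the others.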

How the data were processed

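Total RNA from the quadriceps femoris of 16 mice (control 5, tomatidine 5, ursolic acid 6) was hybridised by the authors to Illumina Mouse Ref-8 v2.0 BeadChips. The deposited table holds log2 signals, 1 column per mouse, for 25697 probes. How the authors corrected the background and normalized the values is not given in the sources used here, nor are slides, scan dates or detection p-values, so batches could not be examined. No 2 arrays held identical values, and correlations between arrays across probes were 0.990 to 0.998 within and between groups. The number of arrays limits the precision.

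Of the probes, 23978 had 1 gene symbol in the platform annotation and 1719 had none. H19, Pgd and Rex1bd were named through probe identifiers in the study's own tables. A gene in a list is represented by its brightest probe. The 54 lists held 1215 members, of which 1079 were measured.

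Group means were fitted with limma 3.58.1 (R 4.3.3; lmFit, eBayes) over all 16 arrays, with p-values adjusted by Benjamini-Hochberg over all probes. The thresholds follow the study's methods for the unadjusted p of 0.025. Probes with a mean under 8.5 were called dim. Lists are described by counts and medians beside all genes, with no test of the list. The fit was tested on simulated data. Mouse numbers did not pair the samples, since correlations of deviations between same-numbered control and tomatidine mice ran from -0.232 to 0.093.

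Named are all probes at an adjusted p of 0.1, the 10 largest rises and falls at the unadjusted threshold, genes the study names, and up to 4 members per list and direction with its defining genes. A few others were chosen after their values were seen. Members, lists and rules were chosen with earlier results of these data known. Alternatives tried were a fit of 2 groups, t-tests as in the study's methods, trend and robust estimates, array weights, other normalizations, a filter on dim probes, a replicate block, leaving out each mouse, leaving out tomatidine mice 3 and 4, and, chosen after seeing the data, the slow-fibre mean as a covariate. Promoters came from RefSeq (GRCm38.p6), where 32851 windows were searched.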

Additional observations from a re-analysis of the deposited data

Results flagged for a closer look

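In 21 of 436 groups examined (4.82%), over named probes and list means in groups of 5 mice, 1 mouse stood far from the rest of its group by Dixon's criterion, which chance gives in about 1 of 20 groups. In tomatidine mouse 1 the distant log2 signals were Atp5pb at 13.14, both Gadd45a probes at 9.76 and 9.16, Mars1 at 8.5 and Tkt at 8.84. In tomatidine mouse 4 they were Cyc1 at 12.58, Kcnab1 at 8.61, Tm6sf1 at 8.42, and the list means of the TCA cycle at 10.75 and of PGC-1 and mitochondrial biogenesis at 9.10. Cacng1 at 10.81 and Simc1 at 8.11 stood apart in tomatidine mouse 3, Sec61b at 8.75 in mouse 2, and Ppp1r11 at 10.72 and Psmb1 at 11.49 in mouse 5. Among control mice the values were Hnrnpa2b1 at 11.34, Hnrnpc at 11.96 and the fibroblast list mean at 9.88 in mouse 5, Psmb1 at 11.85 and Simc1 at 8.21 in mouse 2, and the interferon-stimulated list mean at 8.89 in mouse 1.

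The tomatidine and ursolic acid groups differed at an adjusted p of 0.1 or less (limma) on 3 probes, Ak3 by 0.21, Ints9 by -0.06 and Ugt1a10 by 0.06.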

How the results depend on the processing

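Against control diet, 1380 probes passed the unadjusted threshold and 25 the adjusted one. The unadjusted count was 870 with unequal variances and 663 with the filter on dim probes, and ran from 1089 to 1757 when 1 mouse was left out. Without tomatidine mice 3 and 4 it was 985, of which 48.6% were higher, against 42% with all mice. The adjusted count was 0 with only the 2 groups compared, 0 in the methods' t-test, 0 with unequal variances, 0 without tomatidine mice 3 and 4, 102 with the filter, 50 with the mouse number as a replicate block and 62 with the slow-fibre covariate. With 1 mouse left out it ran from 0 (tomatidine mouse 3) to 168 (tomatidine mouse 1), with 3, 13, 12, 10 and 73 without control mouse 1 to 5, 43, 5 and 3 without tomatidine mouse 2, 4 and 5, and 14 and 6 without ursolic acid mouse 2 and 3. Against ursolic acid the 756 probes became 197 with the filter, and 623 to 1079 with 1 mouse left out. The cause of these shifts was not tested, beyond the filter's smaller number of probes. The mouse numbers did not pair the samples, and the block gave 1388 probes at the unadjusted threshold.

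Of the 150 named probes that changed, 0 reversed under any alternative run, and the call was kept by 128 with only the 2 groups, 101 in the methods' t-test, 89 with unequal variances, 132 with the replicate block and 97 without tomatidine mice 3 and 4. Uncalled genes that changed sign were Atf4 (0 with array weights and -0.07 to 0.03 with 1 mouse left out, and -0.22 to 0.05 on its other probe), Sars (0 without tomatidine mice 3 and 4) and Slc38a2 (-0.06 without those mice and -0.03 to 0.30 with 1 mouse left out). Differences on dim probes are limited by a signal close to the arrays' lowest.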
